A study of Mus musculus with 15 samples.

Results

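The interferon-induced GTPases measured here were 9 mouse genes: the guanylate-binding protein genes Gbp2, Gbp3 and Gbp6, the immunity-related GTPase genes Igtp, Irgm1, Irgm2 and Iigp1, and the myxovirus resistance genes Mx1 and Mx2. They were chosen by name, as every probe whose gene name in the scanner files was 1 of these 9. That gave 12 probes of 55681 distinct probes on the array, which carry 36163 gene names. A gene was tested where it had a probe well above background on at least 4 of the 15 arrays, and 7 of the 9 genes were among the 22908 genes tested. Gbp3 and Gbp6 were not. Gbp2, Irgm2 and Mx2 entered the test with 5 to 6 such arrays, nearly all from cells with a Siva hairpin.

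Transcript levels were measured on 1-colour Agilent arrays in LSZ2 and LSZ4, mouse non-small cell lung cancer lines that were infected with virus made in 293T cells (a human embryonic kidney line) to deliver a short hairpin RNA. The hairpins shSiva1 and shSiva2, in the vector pLKO TRC2.0, target Siva, a p53 target gene whose role in tumour growth the study asks about. The control hairpins were shGFP in pLKO.1 and shLacZ in LL37, against sequences foreign to mouse. Cells with shSiva1, shSiva2 or shGFP were selected in 2 ug/ul puromycin for 3 days and those with shLacZ were not, and all cells were harvested 2 days after plating. In each line, 2 arrays were run per hairpin, apart from shGFP in LSZ2 with 1 array, and 8 arrays with a Siva hairpin were set against 7 with a control hairpin. Samples labelled shGFP1 and shGFP2 are treated here as repeats of a single hairpin, on which the labels are silent. All 8 shSiva arrays were on 1 slide and all 7 control arrays on another, and the vectors also differed, so that slide, vector and Siva hairpin cannot be told apart in a comparison with controls. shSiva1 and shSiva2 share slide, vector and selection. Comparisons with the controls share these 7 arrays and are not independent of each other.

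Interferons bind receptors that activate JAK kinases and STAT transcription factors, which with IRF proteins switch on many genes. The GBP and IRG GTPases are large, strongly interferon-gamma-induced proteins that coat and disrupt the vacuoles of intracellular bacteria and parasites. The Irgm proteins act as regulators that keep the effector IRG proteins inactive on the cell's own membranes. Mx proteins, induced by type I and type III interferons, block virus replication, and in most laboratory mouse strains both Mx genes carry inactivating mutations. The RefSeq annotation used here lists Mx1 and Mx2 as transcribed pseudogenes, and the measurements are of their RNA.

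The stretches just before the annotated starts of 5 of the 9 genes are shown because they hold the letters that interferon-regulated transcription factors read, and because the Igtp and Irgm2 stretches, which lie near each other on chromosome 11, are almost the same. A further one is that of Gbp7, the gene that RefSeq today gives for the accession of the brighter of the 2 probes named Gbp6 on the array. The sequences are from RefSeq, build GRCm38.p6, written 5′ to 3′ on the strand of the gene and ending at the last base before the annotated start (for Gbp3, before the earliest annotated start). Capitals mark the core of the interferon-stimulated response element, searched as GAAANNGAAA on both strands, with overlapping matches joined.
Gbp2, chr3:142620563-142620662, plus strand: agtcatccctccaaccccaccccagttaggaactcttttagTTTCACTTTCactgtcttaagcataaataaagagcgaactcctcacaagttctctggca
Gbp3, chr3:142559944-142560015, plus strand: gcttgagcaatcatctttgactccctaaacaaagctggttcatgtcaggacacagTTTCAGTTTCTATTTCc
Gbp7, chr3:142530236-142530335, plus strand: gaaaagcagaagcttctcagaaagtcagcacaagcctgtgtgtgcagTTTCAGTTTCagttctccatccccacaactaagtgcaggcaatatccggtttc
Igtp, chr11:58199456-58199555, plus strand: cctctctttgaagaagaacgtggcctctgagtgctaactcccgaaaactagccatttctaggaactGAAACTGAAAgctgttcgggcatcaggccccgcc
Irgm2, chr11:58214877-58214976, plus strand: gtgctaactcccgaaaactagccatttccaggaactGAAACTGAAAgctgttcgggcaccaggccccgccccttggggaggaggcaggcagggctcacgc
Irgm1, chr11:48871421-48871520, minus strand: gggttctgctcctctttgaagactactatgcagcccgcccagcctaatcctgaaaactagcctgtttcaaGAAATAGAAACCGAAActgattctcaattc

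Each of these 6 stretches held the response element core, for which they are shown, so this count is no measure of enrichment. The core was found in the 250 bases before the start of 2.98% of the 32851 mouse promoters of the same table. The gamma-activated site, searched as TTCNNNGAA, which reads the same on both strands, was found in 7.02% of them. It lay 45 to 37 bases before the start of Igtp, 75 to 67 bases before that of Irgm2, and at 2 places before that of Gbp7, but was not found in the 250 bases before the starts of Gbp2, Gbp3 and Irgm1. Aligned without gaps, the Igtp and Irgm2 stretches had the same base at 68 of 70 positions, with both motifs inside the shared part. A match is a description of the letters and not evidence of binding. Gbp3 has a further annotated start, and the 250 bases before it held neither motif. Promoters of Gbp6, Mx1, Mx2 and Iigp1 are not shown.

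The targeted gene was lower with both Siva hairpins. Siva1 probe values, on the scale described next, averaged 3.21 ± 0.51 on the 8 shSiva arrays and 5.55 ± 0.53 on the 7 control arrays (SD). They were 2.84 ± 0.40 with shSiva1 and 3.59 ± 0.27 with shSiva2 (SD, n = 4 each), and the 2 hairpins did not overlap (2.32 to 3.25 and 3.44 to 4.0). Values are log2 of the processed signal relative to the 75th percentile of the array, so that 0 is a signal equal to that percentile. That percentile ran from 497 to 956 intensity units on the shSiva arrays and from 425 to 1029 on the control arrays, and 51% to 60.6% of spots on the shSiva arrays and 49.0% to 58.9% on the control arrays were well above background. Of the epithelial markers, all 5 were detected on at least 1 array and 4 of them on all 15. The lung markers Nkx2-1, Sftpc and Sftpa1 stayed below that mark on all 15 arrays, whereas Sftpb, a surfactant protein gene, reached it on 11 and Scgb1a1, a club cell marker, on 8. Of 14 blood and immune markers, 9 were detected on at least 1 array, 5 of them on all 15 (Cd4 and Itgam among these), and Cd8a, Itgax, Lyz2 and Klrb1c were among those on none. In bulk RNA, a change in the share of cells that express a gene and a change in RNA per cell cannot be told apart.

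**Figure D1:**
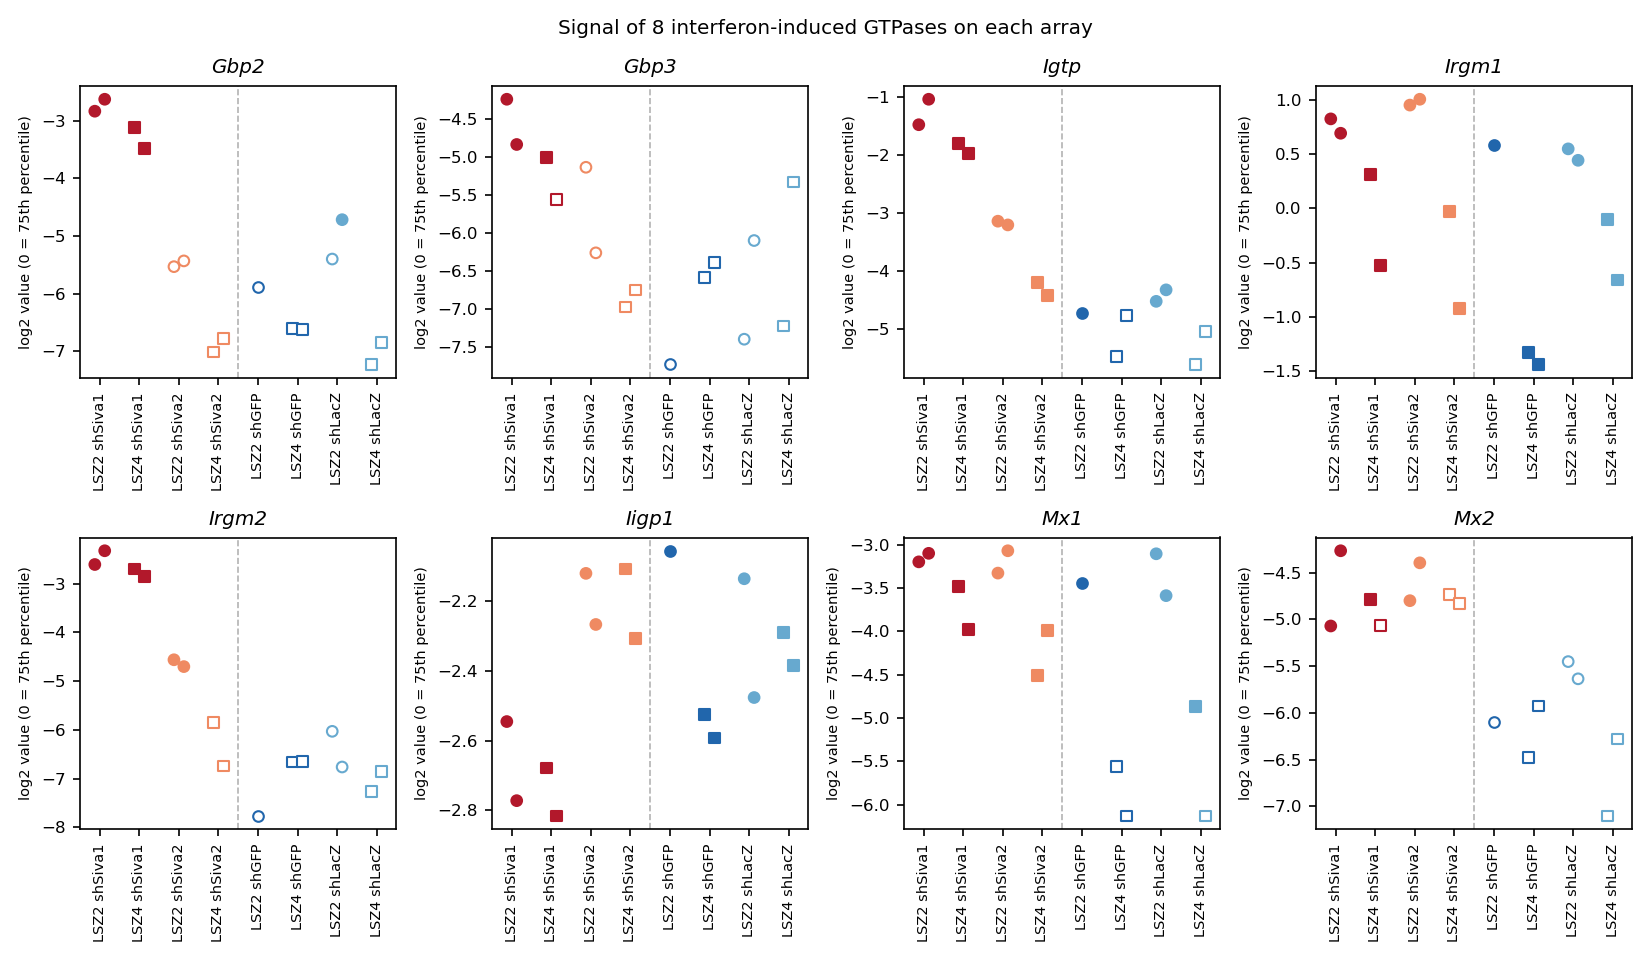
Log2 value of 8 of the genes on each of the 15 arrays, with 0 at the 75th percentile of the array. Circles are LSZ2 and squares LSZ4. Filled points were well above background on that array and open points were not, and the dashed line divides shSiva arrays (left) from control arrays (right). Gbp2, Igtp and Irgm2 stand highest on the 4 shSiva1 arrays, and Mx2 is higher on all 8 shSiva arrays than on any control array.

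Gbp2, a GTPase recruited to parasite vacuoles, was high with shSiva1 in both lines and not with shSiva2. Its values with shSiva1 were -2.84 and -2.63 in LSZ2 and -3.12 and -3.48 in LSZ4. With shSiva2 they were -5.53 and -5.43 in LSZ2 and -7.01 and -6.78 in LSZ4, against a lowest, median and highest value of -7.22, -6.60 and -4.72 on the 7 control arrays. The 4 shSiva1 arrays lay above every other array, while the shSiva2 and control arrays overlapped. The probe was well above background on the 4 shSiva1 arrays, on none with shSiva2, and on 1 control array, LSZ2 shLacZ replicate 2. Against control, the difference was 3.08 with shSiva1 on the log2 scale (SE 0.23, adjusted p = 2.21e-07 by limma over all genes tested), a fitted value given without a fold because 6 of the 7 control arrays were not well above background. With shSiva2 it was -0.09 (95% interval -0.58 to 0.40, adjusted p = 0.883 by limma). The probe shares a run of 16 bases with 1 other probe on the array.

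Gbp3, another GBP of the same chromosome 3 cluster, was near the detection limit. It was well above background on 3 arrays, all with shSiva1, where its values were -4.24 and -4.83 in LSZ2 and -5.01 and -5.56 in LSZ4. With shSiva2 the values were -5.13 and -6.26 in LSZ2 and -6.97 and -6.74 in LSZ4, and on the control arrays they ran from -7.72 to -5.33 with a median of -6.58. The shSiva1 and control values overlap only through the dim LSZ4 shSiva1 array at -5.56 and an LSZ4 shLacZ array at -5.33, neither well above background. Against the lowest signal that counts as well above background on each control array, Gbp3 was at least 1.13-fold higher with shSiva1, and it was not tested.

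The 2 probes named Gbp6 gave different results. The probe whose accession is now Gbp7 was well above background on both LSZ2 shSiva1 arrays, at -4.71 and -4.54, and on no other array. With shSiva1 in LSZ4 it read -5.79 and -6.91, with shSiva2 it ran from -7.23 to -6.56, and on the control arrays from -7.61 to -6.48. The other Gbp6 probe never reached that mark, with values of -7.90 to -6.63 on shSiva arrays and -7.62 to -6.47 on control arrays. The gene now called Gbp6 lies on chromosome 5 and is measured by 2 probes that the files name Mpa2l. The brighter of these was well above background on all 15 arrays and did not share the pattern of Gbp2: it averaged -3.76 ± 0.33 with shSiva1 and -2.87 ± 0.43 with shSiva2 (SD, n = 4 each), against -2.87 ± 0.44 on the 7 control arrays (SD).

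Igtp, also called Irgm3, a regulatory IRG protein found on the endoplasmic reticulum and lipid droplets, was higher with both Siva hairpins, and far more so with shSiva1. Its values with shSiva1 were -1.49 and -1.05 in LSZ2 and -1.81 and -1.98 in LSZ4. With shSiva2 they were -3.15 and -3.21 in LSZ2 and -4.20 and -4.42 in LSZ4, against -5.61, -4.77 and -4.33 as the lowest, median and highest of the control arrays. Ordered by level, LSZ2 shSiva1 came first, then LSZ4 shSiva1, LSZ2 shSiva2 and LSZ4 shSiva2, with no overlap between these 4 groups. LSZ4 shSiva2 overlapped LSZ2 shLacZ (-4.53 and -4.33), and of the control groups only shGFP and shLacZ in LSZ4 overlapped each other, the 3 LSZ2 control arrays lying above the 4 of LSZ4. Within each line every shSiva array lay above every control array of that line. The probe was well above background on all 8 shSiva arrays and on 3 of 7 control arrays, those of LSZ2. Against control, the difference was 3.29 with shSiva1 (SE 0.18, adjusted p = 1.20e-08 by limma). With shSiva2 it was 1.12 (SE 0.18, adjusted p = 0.00059 by limma). Both are fitted values given without a fold, because the 4 LSZ4 control arrays were not well above background. In LSZ4, Igtp was at least 3.18-fold higher with the 2 Siva hairpins pooled. Under normexp background correction the shSiva2 difference was 0.48, with an adjusted p of 0.227.

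Igtp has 10 spots on every array, which allow a look at technical error. The SD of its spots within an array, after dropping 5 of 150 spots that carried an outlier mark, ran from 0.05 to 0.33 on the log2 scale on the shSiva arrays and from 0.20 to 0.90 on the control arrays. The larger spread was in the LSZ4 control arrays, where 1 or 2 of the 10 spots were well above background. All 10 were well above background on the 3 LSZ2 control arrays and on every shSiva array but 1, which had 5.

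**Figure D2:**
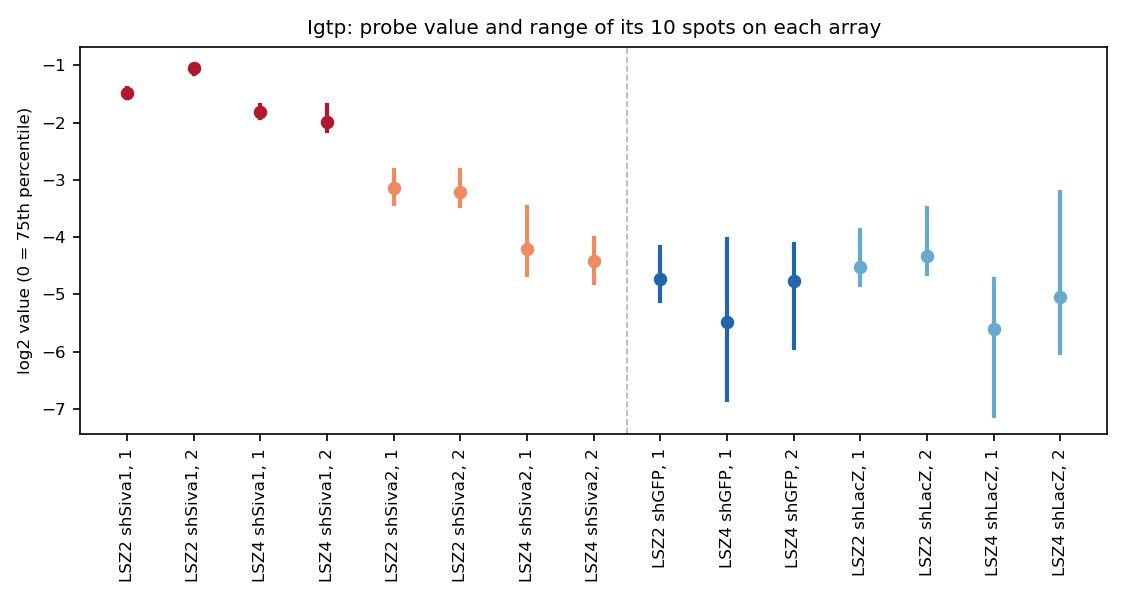
Igtp on each array: the point is the value of the probe and the bar the range of its 10 spots, outliers included, on the log2 scale with 0 at the 75th percentile of the array. shSiva arrays stand left of the dashed line and control arrays right of it. The spots of shSiva1 arrays lie within a narrow range above all others, and those of the LSZ4 control arrays spread the most.

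Irgm2, a regulatory IRG protein of the Golgi membrane whose gene lies next to Igtp, gave the largest fitted difference with shSiva1 of the 7 tested genes. With shSiva1 its values were -2.61 and -2.33 in LSZ2 and -2.70 and -2.86 in LSZ4. With shSiva2 they were -4.56 and -4.70 in LSZ2 and -5.85 and -6.75 in LSZ4, against -7.77, -6.76 and -6.03 as the lowest, median and highest control values. The shSiva1 arrays stood apart from all others, the LSZ2 shSiva2 arrays lay between, and 1 LSZ4 shSiva2 array fell within the control range. No control array was well above background, so the change is a bound: at least 5.49-fold higher with shSiva1 (adjusted p = 5.09e-07 by limma). The shSiva2 difference passed the test (fitted value 1.35, adjusted p = 0.0168 by limma), but gives no fold above 1 against the background floor. Without LSZ2 shSiva2 replicate 1 it was 1.13 with an adjusted p of 0.075, without replicate 2 it was 1.18 with 0.0701, and under normexp it was 0.33 with 0.682. The probe shares a run of 16 bases with 1 other probe.

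Irgm1, a regulatory IRG protein of the Golgi and lysosomes that is also tied to autophagy, was measured well above background on all 15 arrays by both of its probes. The brighter probe read 0.82 and 0.69 with shSiva1 and 0.95 and 1.0 with shSiva2 in LSZ2, against 0.58 with shGFP and 0.55 and 0.44 with shLacZ. In LSZ4 it read 0.31 and -0.52 with shSiva1 and -0.03 and -0.92 with shSiva2, against -1.33 and -1.44 with shGFP and -0.10 and -0.66 with shLacZ. The shSiva arrays lay above all control arrays in LSZ2 and overlapped the shLacZ arrays in LSZ4. The difference from control was 0.51 with shSiva1 (95% interval -0.04 to 1.07, adjusted p = 0.159 by limma) and 0.44 with shSiva2 (-0.12 to 0.99, adjusted p = 0.343). Without LSZ4 shLacZ replicate 1, the shSiva1 difference was 0.63 with an adjusted p of 0.0448. The dimmer probe gave 0.48 with shSiva1 and 0.51 with shSiva2, also not called. Neither Siva hairpin differed detectably from the other (-0.08, 95% interval -0.70 to 0.55).

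Iigp1, an effector IRG protein also called Irga6, did not follow Igtp and Irgm2. The probe that was well above background on all 15 arrays read -2.55 and -2.77 with shSiva1 in LSZ2 and -2.68 and -2.82 in LSZ4. With shSiva2 it read -2.12 and -2.27 in LSZ2 and -2.11 and -2.31 in LSZ4, against control values of -2.59, -2.38 and -2.06 (lowest, median and highest). The shSiva1 arrays were the dimmest in each line, with 1 of them within the control range, and every shSiva2 array was brighter than every shSiva1 array. The difference from control was -0.36 with shSiva1 (SE 0.13, adjusted p = 0.0505 by limma) and 0.14 with shSiva2 (SE 0.13, adjusted p = 0.585). The shSiva1 value passed the threshold in some other settings, such as quantile normalization (-0.32, adjusted p = 0.0264), and without any 1 of LSZ4 shGFP replicate 2, LSZ2 shLacZ replicate 2 and LSZ4 shLacZ replicate 1 (-0.39, -0.40 and -0.34, adjusted p = 0.0441, 0.047 and 0.0445). The other Iigp1 probe was not well above background except on 1 array, LSZ2 shLacZ replicate 2, where it read -1.67 while the other 14 arrays lay between -7.99 and -6.52.

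Mx2 read higher on every shSiva array than on any control array in both lines, and the hairpins could not be separated. In LSZ2 alone, the fit that pooled both Siva hairpins did not call it. With shSiva1 its values were -5.07 and -4.27 in LSZ2 and -4.79 and -5.06 in LSZ4. With shSiva2 they were -4.80 and -4.40 in LSZ2 and -4.74 and -4.83 in LSZ4, against -7.10, -6.09 and -5.45 as the lowest, median and highest control values. The shSiva and control arrays did not overlap, although 5 of 8 shSiva arrays and 0 of 7 control arrays were well above background. Those 5 were the 4 LSZ2 arrays and 1 LSZ4 array. In LSZ4 alone there is no fold above 1 against the background floor. Against the background floor of the control arrays, Mx2 was at least 1.19-fold higher with shSiva1 (adjusted p = 0.000741 by limma). With shSiva2 it was at least 1.28-fold higher (adjusted p = 0.000743). These bounds take dim shSiva arrays at their own values, with 3 of 4 shSiva1 and 2 of 4 shSiva2 arrays well above background. The difference between shSiva2 and shSiva1 was 0.11 (95% interval -0.45 to 0.66, adjusted p = 0.814). Under normexp correction, whose offset of 50 compresses dim signals, the fitted values were 0.53 and 0.34, with adjusted p = 0.221 and 0.823.

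Mx1 was higher with shSiva in LSZ4, while the arms overlapped in LSZ2, but the difference between the lines did not pass the test. In LSZ2 it read -3.20 and -3.10 with shSiva1 and -3.33 and -3.07 with shSiva2, against -3.44 with shGFP and -3.10 and -3.59 with shLacZ. In LSZ4 it read -3.48 and -3.98 with shSiva1 and -4.51 and -3.99 with shSiva2, against -5.56 and -6.13 with shGFP and -4.87 and -6.13 with shLacZ, without overlap. Mx1 was well above background on all 8 shSiva arrays and on 4 of 7 control arrays, 1 of them in LSZ4. The shSiva effect was 1.68 in LSZ4 (SE 0.28, adjusted p = 0.00313 by limma, a fitted value against 4 control arrays of which 1 was well above background) and 0.20 in LSZ2 (SE 0.30, adjusted p = 0.929). The difference between these effects, LSZ2 minus LSZ4, was -1.48 (95% interval -2.35 to -0.61), with an adjusted p of 0.899, in a comparison where 0% of all genes were called. Under normexp correction the LSZ4 effect was 0.66 with an adjusted p of 0.205. Over both lines, the difference from control was 1.14 with shSiva1 (SE 0.33, adjusted p = 0.0189) and 0.86 with shSiva2 (SE 0.33, adjusted p = 0.11). Without LSZ4 shSiva1 replicate 1 or 2 the shSiva1 value was 0.87 or 1.06, with adjusted p = 0.0949 or 0.0623.

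Counted over the 7 tested genes, 5 rose with shSiva1 (Gbp2, Igtp, Irgm2, Mx1 and Mx2), where 10.3% of all genes tested rose and 25.7% changed in either direction. With shSiva2, 3 rose (Igtp, Irgm2 and Mx2), where 5.98% of all genes tested rose. None of the 7 fell with either hairpin. Gbp2, Irgm2 and Mx2 entered the test mainly through the arrays on which they were high, so that the counts describe the genes and do not set them apart. Normexp correction left 3 rises with shSiva1 and 0 with shSiva2, and the shares of all genes that rose under it are not given here.

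**Figure D3:**
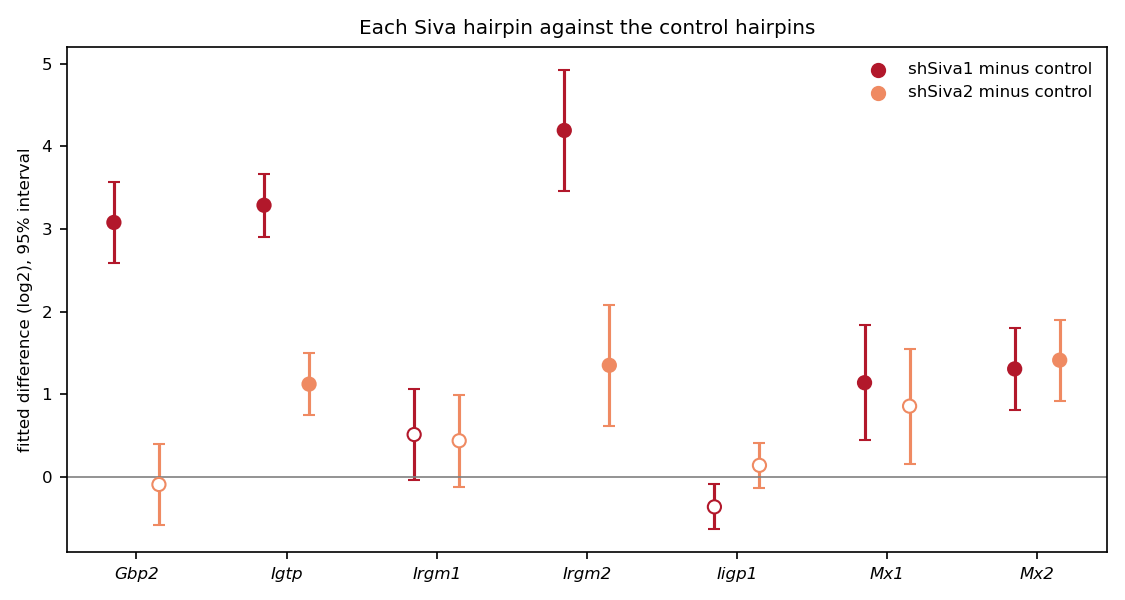
Fitted log2 difference of each Siva hairpin from the 7 control arrays for the 7 tested genes, with 95% intervals. Filled points passed an adjusted p of 0.05 over all genes tested. For Irgm2 and Mx2, which no control array measured well above background, the plotted values are not bounds. The shSiva1 and shSiva2 intervals are far apart for Gbp2, Igtp and Irgm2 and lie side by side for Irgm1, Mx1 and Mx2.

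Set against each other, shSiva2 and shSiva1 divided the genes. Of the 7 tested, 3 were lower with shSiva2 and 1 higher, where 9.53% of all genes tested were lower and 9.97% higher, 19.5% in all. Gbp2, with no shSiva2 array well above background, was at least 4.22-fold lower (fitted value -3.17, SE 0.26, adjusted p = 6.20e-07 by limma). Igtp was lower by -2.16 (SE 0.20, adjusted p = 2.01e-06) and Irgm2 by -2.84 (SE 0.39, adjusted p = 7.64e-05), and in each case the 4 shSiva2 arrays lay below the 4 shSiva1 arrays. Iigp1 was higher by 0.50 (SE 0.14, adjusted p = 0.0222), a call that was lost when any 1 of 4 arrays was left out: LSZ2 shSiva1 replicate 2, LSZ4 shSiva1 replicate 2, LSZ2 shSiva2 replicate 1 or LSZ4 shSiva2 replicate 1 (0.45, 0.49, 0.50 and 0.44, adjusted p = 0.0595, 0.064, 0.0611 and 0.0743). For Mx1 the difference was -0.28 (95% interval -1.07 to 0.50). Beside these values, Fcgr3, the one immune marker that followed the hairpins, was well above background on the 4 shSiva1 arrays and on none with shSiva2 or a control hairpin. The summed signal of the 14 immune markers was 1296% to 1737% of the 75th percentile with shSiva2 and 1219% to 1478% with shSiva1. Of the lung markers, both of those tested, Sftpb and Scgb1a1, were also higher with shSiva2 than with shSiva1 (3.94 and 0.78, adjusted p = 9.04e-05 and 0.0217 by limma), and the summed signal of the 5 lung markers was 12.8% to 51.7% of the 75th percentile with shSiva2 and 3.74% to 7.74% with shSiva1. Sftpb and Scgb1a1 were each well above background on 1 shSiva1 array, against 4 and 3 with shSiva2. Of the fibroblast markers, Col1a1, a collagen gene, was lower by -3.13 (adjusted p = 4.97e-05) and Col1a2 was not called, with a sum over the 6 markers of 8.80% to 14.2% with shSiva2 and 14.2% to 26.3% with shSiva1. Col1a1 was well above background on 4 shSiva1 arrays and 0 shSiva2 arrays. The differences of these 3 markers are therefore fitted values and not folds. The part of these markers in the result was not tested.

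Over both hairpins and lines, 4 of the 7 genes rose with shSiva against control (Igtp, Irgm2, Mx1 and Mx2), where 4.32% of all genes tested rose. Igtp rose by 2.21 (SE 0.43, adjusted p = 0.00457 by limma). Irgm2 was at least 2.05-fold higher (adjusted p = 0.00852) and Mx2 at least 1.23-fold higher (adjusted p = 0.000413). Mx1 rose by 1.0 (SE 0.27, adjusted p = 0.0285), a call lost without any 1 of LSZ4 shGFP replicate 1 or 2, LSZ4 shLacZ replicate 2 and LSZ4 shSiva1 replicate 1 or 2 (0.86 to 0.96, adjusted p = 0.0526 to 0.0641). Under normexp correction only Igtp was called (1.15, adjusted p = 0.0211), while Irgm2, Mx1 and Mx2 had fitted values of 0.95, 0.43 and 0.43 (adjusted p = 0.0654, 0.307 and 0.378). Gbp2, at 1.5 (SE 0.62, adjusted p = 0.142), was not called, with the shSiva1 and shSiva2 arrays pooled in 1 group.

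Within a line, the fit that pooled both Siva hairpins called 0 of the 7 genes in LSZ2, where 0.939% of all genes tested were called. At an unadjusted p under 0.05, 3 of the 7 passed (Igtp, Irgm2 and Mx2), a count given without its share of all genes. Without LSZ4 shLacZ replicate 1 it called Mx2 in LSZ2 (1.09, adjusted p = 0.0283). In LSZ4 it called 2, Mx1 and Mx2, both higher, where 2.39% of all genes tested rose. Mx2 was there well above background on 1 of 4 shSiva arrays and 0 of 4 control arrays, so its difference is a fitted value. Without LSZ4 shLacZ replicate 1, the calls over all genes in LSZ4 were 5925 in place of 1036. The fit then called 4 of the 7 there, among them Igtp (1.99, adjusted p = 0.0456 by limma) and Irgm1 (0.85, adjusted p = 0.0352 by limma). Without LSZ4 shSiva2 replicate 2 it also called 4, among them Igtp (2.56, adjusted p = 0.0247) and Irgm2 (3.05, adjusted p = 0.0309). In these fits the gap between shSiva1 and shSiva2 counts as spread.

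A fit with a mean for each line and hairpin, added after the data were seen, keeps the hairpins apart in each line. Its values are fitted differences and not folds where no control array of the line was well above background. That was so for Gbp2 and Igtp in LSZ4 and for Irgm2 and Mx2 in both lines. The fit gave shSiva1 differences from control of 2.74 in LSZ2 and 3.52 in LSZ4 for Gbp2 (adjusted p = 5.23e-05 and 2.44e-06 by limma). For Igtp they were 3.31 and 3.33 (adjusted p = 3.10e-05 and 6.11e-06). With shSiva2, Igtp differed from control by 1.40 in LSZ2 (adjusted p = 0.014) and 0.91 in LSZ4 (adjusted p = 0.0408), and Gbp2 by -0.01 and -0.07 (adjusted p = 0.991 and 0.925). Irgm2 differed with shSiva2 by 2.45 in LSZ2 (adjusted p = 0.00127) and by 0.56 in LSZ4 (adjusted p = 0.289). For Mx2 in LSZ2, neither the shSiva1 nor the shSiva2 difference was called (1.15 and 1.22, adjusted p = 0.051 and 0.0642 by limma). In LSZ4 both Mx2 differences were called (1.52 and 1.66, adjusted p = 0.00476 and 0.00499). Of all genes tested, this fit called 8.42% in LSZ2 and 25% in LSZ4 with shSiva1, and 4.14% in LSZ2 and 9.19% in LSZ4 with shSiva2. The gap between shSiva2 and shSiva1 was not shown to differ between the lines for any of the 7 genes (adjusted p of 0.669 or more, where 0.166% of all genes tested were called).

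The shSiva arrays were also set against each control hairpin. Against shGFP, 6 of the 7 genes rose with shSiva (all but Iigp1), where 7.14% of all genes tested rose. Against shLacZ, 4 rose (Gbp2, Igtp, Irgm2 and Mx2), where 6.83% rose. In both comparisons shSiva is the mean of shSiva1 and shSiva2. Gbp2 was high with shSiva1 alone, and with shSiva2 it was not called against the control hairpins. Under normexp correction 1 of the 7, Igtp, was called against shGFP and 2, Igtp and Irgm2, against shLacZ. Shares of all genes called under that correction are not given here. Igtp differed by 2.19 against shGFP (SE 0.20, adjusted p = 1.79e-05 by limma) and by 2.22 against shLacZ (SE 0.18, adjusted p = 4.65e-06). Irgm1 differed by 0.81 against shGFP (SE 0.26, adjusted p = 0.0389) and by 0.23 against shLacZ (SE 0.23, adjusted p = 0.61). The first of these Irgm1 values lost its call without any 1 of 8 arrays: LSZ4 shGFP replicate 1 or 2, replicate 1 of LSZ2 shLacZ, LSZ2 shSiva1, LSZ4 shSiva1 or LSZ4 shSiva2, and LSZ2 shSiva2 replicate 1 or 2. The values were then 0.66 to 0.83, with adjusted p = 0.0532 to 0.204. The Mx1 call against shGFP (1.22, adjusted p = 0.029) was lost without LSZ4 shGFP replicate 1 or 2 or replicate 1 of LSZ4 shSiva1 or LSZ4 shSiva2 (0.92 to 1.23, adjusted p = 0.05 to 0.185). Between shGFP and shLacZ themselves, 0 of the 7 genes differed by limma, also at an unadjusted p under 0.05, and 0.00437% of all genes tested were called. The shGFP cells had been selected in puromycin and the shLacZ cells had not.

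Between the lines with control hairpins, Irgm1 and Mx1 were higher in LSZ2 than in LSZ4, 2 of the 7 genes, where 2.46% of all genes tested were higher. Mx1 was higher by 2.29 (SE 0.30, adjusted p = 0.000361 by limma), a fitted value with all 3 LSZ2 and 1 of the 4 LSZ4 control arrays well above background, and under normexp correction by 0.37 (adjusted p = 0.354). Irgm1 was higher by 1.40 (SE 0.32, 2.65-fold, adjusted p = 0.0227), a call lost without any 1 of LSZ2 shGFP replicate 1, LSZ4 shGFP replicate 1 or 2 and LSZ2 shLacZ replicate 1 or 2 (1.22 to 1.45, adjusted p = 0.0699 to 0.106). With Siva hairpins, 0 of the 7 were called, where 1.66% of all genes tested were. Irgm1 was then higher by 1.16 in LSZ2 (SE 0.30, adjusted p = 0.0793 by limma), with each of the 4 LSZ2 arrays above the 4 LSZ4 arrays, and passed the threshold without LSZ4 shLacZ replicate 1 (1.16, adjusted p = 0.024) or LSZ4 shSiva1 replicate 1 (1.36, adjusted p = 0.0327). Irgm1 and Mx1 had an unadjusted p under 0.05 there, and the share of all genes at that threshold is not given here.

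Other genes of the pathway were counted from lists. Over all genes tested, 10.3% rose and 15.4% fell with shSiva1, and 5.98% rose and 6.3% fell with shSiva2. Of 17 further interferon-induced GTPases, 15 were on the array and 8 were tested: 3 were higher and 2 lower with shSiva1, and 1 was higher and 1 lower with shSiva2. Ifi47, the IRG protein Irgd, averaged 0.12 with shSiva1 and -1.06 with shSiva2, against -2.14 on control arrays, and was called with both hairpins (2.13 and 0.95, adjusted p = 1.47e-05 and 0.0179 by limma). Tgtp1, an effector IRG with a near-identical neighbour, went the other way: it averaged -5.16 and -4.93, against -3.96 on control arrays, with differences of -1.16 and -0.93 (adjusted p = 0.00245 and 0.0173). Tgtp1 was well above background on 2 shSiva1 arrays, 1 shSiva2 array and 7 control arrays, so its shSiva values lie mostly near background. Tgtp2, the neighbour, averaged -4.24 on shSiva arrays and -4.33 on control arrays.

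Ligands, receptors and their kinases act upstream of these genes. Of 11 tested ligand genes, 0 rose and 3 fell with shSiva1, and 2 fell with shSiva2, where 15.4% and 6.3% of all genes fell. Ifna2 differed by -1.04 and -0.74 with shSiva1 and shSiva2 (adjusted p = 0.00231 and 0.0326), and Ifna5 by -1.23 and -0.60 (adjusted p = 0.000605 and 0.0824). Genes of the interferon alpha family are nearly alike, so their probes may not separate them. Of the 15 ligand genes on the array, 13 were well above background on at least 1 array, and 7 of them on all 15. Ifnb1 and Ifna4 reached that mark on 0 arrays and Ifng on 1. Of 12 tested receptor, JAK and STAT genes, 1 rose and 4 fell with shSiva1, and 1 rose and 2 fell with shSiva2, beside the same shares of all genes. Ifngr2, a chain of the interferon gamma receptor, averaged 1.73 with shSiva1 and 2.58 with shSiva2, against 2.86 on control arrays, and the shSiva1 difference was called (-1.08, adjusted p = 0.00178). Ifnlr1, a chain of the interferon lambda receptor, fell with both (-0.65 and -0.49, adjusted p = 0.00467 and 0.0381).

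Of 6 tested interferon regulatory factor genes, 2 rose with shSiva1 and 0 with shSiva2, where 10.3% and 5.98% of all genes rose. Irf1, which binds the response element, was among those that rose and differed by 0.75 with shSiva1 (adjusted p = 0.00656 by limma) and by 0.26 with shSiva2 (adjusted p = 0.43). Of 10 tested feedback inhibitor genes, 1 rose with each hairpin, beside 10.3% and 5.98% of all genes. Usp18, which dampens interferon receptor signalling, rose with shSiva1 (2.38, adjusted p = 4.80e-07) and differed by 0.61 with shSiva2 (adjusted p = 0.0546). Socs1, an inhibitor of JAK kinases, rose with shSiva2 (1.10, adjusted p = 0.00226) and differed by 0.09 with shSiva1 (adjusted p = 0.784).

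Of 17 tested nucleic acid sensor and adaptor genes, 4 rose and 3 fell with shSiva1, where 10.3% of all genes rose and 15.4% fell, and 2 rose with shSiva2, where 5.98% did. The RNA sensors Ddx58 (RIG-I) and Ifih1 (MDA5) rose with shSiva1 by 2.31 and 2.77 (adjusted p = 9.97e-08 and 0.00027 by limma) and differed by 0.22 and 1.15 with shSiva2 (adjusted p = 0.459 and 0.107). Of 39 other interferon-stimulated genes on the array, 29 were tested. Among the 39, 7 were well above background on no array, such as Ifit1 and Rsad2. Some tested genes, such as Epsti1 and Ifit3, passed the filter mainly through shSiva1 arrays, so the counts do not set the list apart. Of the 29, 16 rose and 1 fell with shSiva1, beside the same shares of all genes, with a median difference of 0.70 against -0.19 over all genes. With shSiva2, 7 rose and 1 fell, with a median of 0.15 against -0.05 over all genes. Tap2 and Psmb9, of antigen peptide transport and the immunoproteasome, rose alike with both hairpins: Tap2 by 1.96 with shSiva1 and 2.28 with shSiva2 (adjusted p = 3.96e-05 and 2.42e-05), and Psmb9 by 2.02 and 1.91 (adjusted p = 6.56e-06 and 2.98e-05). Between the hairpins, Tap2 differed by 0.32 and Psmb9 by -0.11 (adjusted p = 0.467 and 0.797), while Usp18, Ddx58 and Ifih1 were lower with shSiva2 than with shSiva1 by -1.78, -2.09 and -1.62 (adjusted p = 3.03e-05, 9.98e-07 and 0.0286).

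**Figure D4:**
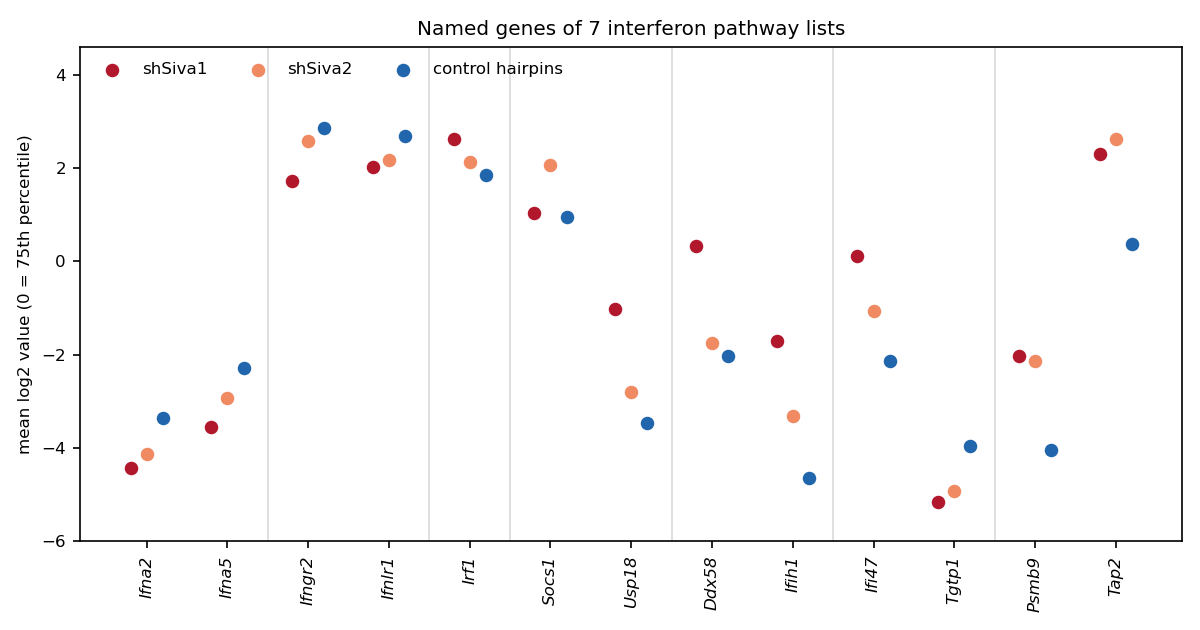
Mean log2 value of 1 or 2 genes from each of 7 interferon pathway lists with shSiva1 (4 arrays), shSiva2 (4 arrays) and control hairpins (7 arrays), with 0 at the 75th percentile of the array. Lists run from left to right as ligands, receptors, regulatory factors, feedback inhibitors, sensors, other GTPases and other interferon-stimulated genes. Usp18, Ddx58, Ifih1 and Ifi47 are highest with shSiva1, and Tap2 and Psmb9 are about equally high with both Siva hairpins.

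The genes whose 8 group means ran most like those of a tested member were found by the root mean square difference of the means, each centred on its own average, among 22908 genes. For Gbp2 these were Mansc1 (0.27 on the log2 scale) and H2-DMb1 (0.30), for Igtp Ptpn18 (0.21) and Ddit4l (0.29), and for Irgm2 Chd5 (0.31) and Tfr2 (0.56). H2-DMb1, which serves peptide loading of MHC class II, averaged -1.68 with shSiva1 and -5.25 with shSiva2, against -5.36 with shGFP and -5.44 with shLacZ. Irgm1 was most like Tiaf2 (0.11) and Trim6 (0.12), Mx2 most like Pabpc1l (0.17) and Tnip3 (0.20), and Mx1 most like Chd7 (0.21) and a transcript listed only by an identifier (0.25). Irgm2 was well above background on 6 arrays, Chd5 and Tfr2 on 5 each, and H2-DMb1 and Tiaf2 on 9 each. For such genes several of the means compared lie near background. The 8 means of Iigp1 spanned 0.69, too little for this comparison.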

How the data were processed

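Total RNA (200 ng a sample, labelled with Cy3, per the labels) was measured on 15 Agilent 1-colour mouse arrays. Deposited intensity values come from scanner files that name, in their headers, version 10.7.3.1 of Feature Extraction. Their processed signal is already background-subtracted and detrended over the slide. The deposited value table holds log2 values, which the authors' table gives as processed signal over the 75th percentile of the array with the median of each probe set to 0: set against the scanner files, its values differed from these by a median of 0.0129. It served as an alternative. Probe positions are on mm9, per the file headers, and were not combined with the GRCm38.p6 sequences.

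Spots of a probe were averaged after removal of controls and outliers, and the 75th percentile of the array was subtracted on the log2 scale. A probe was tested when 4 or more arrays measured it well above background and no more than 3 lacked a value (32188 probes), and the probe of highest mean stood for its gene. Linear models used limma 3.58.1 under R 4.3.3 (data.table, version 1.17.8, with pandas 2.3.3 and matplotlib 3.10.9 for sequences and figures), with Benjamini-Hochberg adjustment over the 22908 genes and a threshold of 0.05. The pooled and line comparisons had line and arm as terms or a mean per line and arm. For single Siva hairpins the terms were line and shSiva1, shSiva2 or control, and for single control hairpins line and all 4 hairpins. Each fit shares 1 spread per gene over its groups, so the single LSZ2 shGFP array takes its spread from the other groups. Where no array of a group measured a gene well above background, its fold is a bound. For it, each array of that group counted at its own value or at the lowest signal of any well-measured probe, whichever was higher. Arrays of the other group, dim ones too, kept their own values. The bounds of Gbp3 and Mx2 and the pooled bound of Irgm2 are therefore not strict minimums. A limma p beside a bound tests the fitted difference. Precision is limited by how many arrays there are. The labels do not say that replicates were separate cultures, so a p-value may reflect no more than the technical spread of these arrays. Same-group arrays correlated at 0.979 to 0.996 and no pair held identical values.

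The genes described and the pathway lists were chosen with earlier results of these data known. The genes named are the 9 members, the 2 genes of each list with the smallest p in the pooled comparison (1 of them is not reported here), and the 2 genes most like each member whose 8 group means span at least 1. Ifnb1, Ifna4, Ifng, Tgtp2, Ifit1, Rsad2, Epsti1, Ifit3, the Mpa2l probes and the cell type markers named were picked after their values were seen. Fits were tested on simulated data. Alternatives were normexp background correction (offset 50), median and quantile scaling, the deposited table, dropping the filter or asking it of all arrays, other ways of summarising probes, blocks, group means, and leaving out each array.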

Additional observations from a re-analysis of the deposited data

Results flagged for a closer look

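With 4 arrays each, the same slide, the same vector and the same selection, shSiva2 and shSiva1 differed by the limma test of their difference in 4 of the 7 tested genes, beside 19.5% of all genes tested. The values of shSiva2 minus shSiva1 were -3.17 for Gbp2, -2.16 for Igtp, -2.84 for Irgm2 and 0.50 for Iigp1 on the log2 scale. In each of these 4 genes, which the same test picked, the arrays of the 2 hairpins did not overlap. The share of all genes tested without such overlap is not given here. Each probe of the 9 genes was also examined for 1 array far from the rest within a line and arm of 4 arrays, in the 23 such sets with at least 1 array well above background, and none was found. A shSiva set holds arrays of both Siva hairpins. Where these differ, as for Gbp2, Igtp and Irgm2, the gap widens the set and can hide such an array. The 3 LSZ2 control arrays are too few for that test: there the dim Iigp1 probe read -1.67 on shLacZ replicate 2, against -7.34 on each of the other two.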

How the results depend on the processing

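Over all alternatives, the fitted values of the 7 genes kept direction and side of the threshold in 2103 cases, lost a call in 71, gained one in 34 and reversed a call in 0. Counts are of genes called among these 7. The cause of the shifts was not tested, except that a filter on all 15 arrays leaves only Irgm1 and Iigp1 to test. Under normexp correction the counts were 1 for shSiva against control (4 in the analysis reported), 0 in LSZ4 (2), 1 against shGFP (6), 2 against shLacZ (4), 3 for shSiva1 (5), 0 for shSiva2 (3) and 1 for LSZ2 against LSZ4 with control hairpins (2). With the filter on all arrays they were 0 for shSiva against control, 0 in LSZ4, 1 against shGFP, 0 against shLacZ, 1 for shSiva1, 0 for shSiva2, 1 for shSiva2 against shSiva1 (4) and 1 between lines with control hairpins. With 1 mean for each of the 8 groups they were 1 for shSiva against control, 0 in LSZ4, 2 against shLacZ and 1 between lines with control hairpins. Over all genes that setting called 287, 33, 452 and 150 in the same order, against 2288, 1036, 2577 and 1361 in the analysis reported. A random block made of the 8 groups gave 1 in LSZ4 and 1 between lines with control hairpins. Median scaling and quantile normalization each gave 1 in LSZ2 (0). Shares of all genes are not given beside the counts for normexp, the filter, the random block and these 2 scalings. Whether these 7 genes lost or gained calls more than other genes was not tested. The added fit with a mean for each line and hairpin gave 4 in LSZ2, 5 in LSZ4, 4 between lines with control hairpins and 4 with Siva hairpins (0), where it called 5.68%, 16.2%, 37.5% and 5.64% of all genes. Leaving out 1 array at a time gave 0 to 1 in LSZ2, 2 to 4 in LSZ4, 1 to 2 between lines with control hairpins and 0 to 1 with Siva hairpins.

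With the replicate block the counts of these genes were as reported, except for 6 with shSiva1 in place of 5, the sixth being Iigp1 (-0.35, adjusted p = 0.0281). The labels give no shared batch for a replicate number, and the numbers were not taken to pair the samples: over 21 pairs of groups, deviations of same-numbered arrays correlated at -0.21 to 0.73 with a median of 0.23, and 14 pairs, not all, were over 0.1. Over all genes the block gave 9893 calls against shGFP (4753 without it) and 3905 against shLacZ (2577).

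Over all genes, 2288 were called for shSiva against control, and 287 to 4545 under other settings. The counts were 5885 for shSiva1 (2689 to 7380), 2813 for shSiva2 (1176 to 4189), 4468 for shSiva2 against shSiva1 (2144 to 6151), 215 in LSZ2 (0 to 1300), 1036 in LSZ4 (33 to 3700), 1361 between lines with control hairpins (150 to 8585) and 380 with Siva hairpins (74 to 1293). Against shGFP and shLacZ the lowest counts were 846 and 452. Without LSZ4 shLacZ replicate 1 the counts were 3802 for shSiva against control, 8932 for shSiva1, 5925 in LSZ4, 377 in LSZ2 and 12862 between lines with control hairpins. The lowest counts without 1 array were 1554, 3997, 499, 74 and 360 in that order (without LSZ4 shLacZ replicate 2, LSZ4 shSiva1 replicate 1, LSZ4 shGFP replicate 2, and for the last 2 LSZ2 shLacZ replicate 1), and against shGFP 1469 to 8522 (without LSZ4 shGFP replicate 2 and LSZ2 shGFP replicate 1). Of the genes called for shSiva against control, 43.3% were higher, against 56.0% under normexp, and for LSZ2 against LSZ4 with control hairpins 41.4%, against 28.7% under median scaling. Median scaling also gave 50.2% for shSiva1 (40.1%), and normexp 72.1% against shLacZ (60.7%). Quantile normalization moved the median difference of all genes to -0.05 with shSiva1 (-0.19) and to -0.10 for LSZ2 against LSZ4 with control hairpins (-0.32). Gbp2, Irgm2 and Mx2 lie near background in most groups, which limits most of their folds to bounds.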
